A study of Mus musculus with 18 samples.

Results

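The genes described here are Tmem119 and 8 genes best known from bone-forming cells, namely Runx2, Sp7, Dlx5, Alpl, Phex, Spp1, Ibsp and Bglap, which makes 9 of the 47643 genes in the deposited count table. All 9 symbols mapped to 1 Ensembl identifier each. Tmem119 was selected on its measured rise with both hairpins, and it ranked 19 and 15 from the top of the tested genes by log2 fold change with shRNF185.1 and shRNF185.3. Its difference from control is therefore given as a description with no test, and it supports nothing else. The other 8 were added by symbol for their known role in osteoblasts. RNA came from MPC3, a mouse prostate cancer cell line, in 18 libraries. The control group has the title prefix plko, and the other groups carry a knockdown of RNF185 by hairpin shRNF185.1 or by hairpin shRNF185.3, with 6 libraries in each group. Batches 1, 2 and 3 of the labels each hold 2 libraries of every group. The alleles behind the cell line, the culture time and whether a hairpin line came from 1 clone or from a pool are not given in the sources used here. The labels do not say that the libraries of a group came from separate cultures, so the p-values measure only the spread between these samples, which may be technical.

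Osteoblasts are cells of mesenchymal origin that secrete a collagen matrix and then mineralise it. Runx2 is the transcription factor that commits cells to this fate, Sp7 (osterix) acts after it, and Dlx5 is a homeodomain factor that acts on both. Alpl encodes the tissue-nonspecific alkaline phosphatase, which breaks down pyrophosphate, an inhibitor of mineral growth. Phex encodes a cell-surface endopeptidase whose loss causes X-linked hypophosphataemia. Spp1 (osteopontin), Ibsp (bone sialoprotein) and Bglap (osteocalcin) encode secreted proteins of bone matrix. Tmem119 encodes a single-pass membrane protein of osteoblasts that is also widely used as a marker of microglia. Prostate cancer spreads often to bone, and its cells can express genes of this kind.

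Total counts ranged from 22027394 to 43379662 per library, and 14309 genes passed the count filter. Rnf185, the targeted gene, averaged 35.9 ± 1.96 CPM in control. The hairpin means were 5.81 ± 0.582 CPM (shRNF185.1) and 5.80 ± 0.546 CPM (shRNF185.3; SD over 6 libraries), so Rnf185 was lower in every knockdown library than in every control. It does not tell the hairpins apart, since their ranges were 5.21 to 6.80 and 5.19 to 6.72 CPM. CPM relate each count to an effective library size. Of 10 prostate luminal markers, Krt8 and Krt18, which encode simple epithelial keratins, and Hoxb13, a prostate homeodomain factor, were expressed, with control means of 1200, 354 and 56.5 CPM. Epcam and Pbsn, which also mark that lineage, averaged 0.125 and 0 CPM in control.

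Of the 9 bone-like genes, 5 passed the filter: Tmem119, Alpl, Phex, Runx2 and Spp1. Sp7, Dlx5, Ibsp and Bglap did not. The cells thus held a mixed pattern. In control the secreted matrix protein osteopontin was abundant and the transcription factor Runx2 was well expressed. Transcripts of the late osteoblast proteins bone sialoprotein and osteocalcin were at or close to the floor of 3 counts in a library, which corresponds to between 0.0701 and 0.133 CPM and covers counting error only.

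Levels can be compared between genes only per length, here as CPM per kilobase of exonic sequence in GENCODE M21. The order in control was Spp1 at 1580 ± 365, Runx2 at 9.82 ± 0.578, Tmem119 at 0.959 ± 0.336, Alpl at 0.541 ± 0.152 and Phex at 0.458 ± 0.132 CPM per kilobase (SD, n = 6). The ranges of Tmem119 and Alpl overlapped, at 0.522 to 1.52 and 0.395 to 0.708, as did those of Alpl and Phex, at 0.395 to 0.708 and 0.360 to 0.723. Spp1 and Runx2 each stood apart from the gene below. With shRNF185.1 Tmem119 was at 6.90 ± 2.03 CPM per kilobase, and its range of 5.66 to 11.0 covered that of Runx2, 7.01 to 8.49. With shRNF185.3 the order was Spp1, Runx2 at 8.89 ± 0.509, Tmem119 at 7.76 ± 1.60, Alpl at 5.52 ± 0.807 and Phex at 0.434 ± 0.0635. There the ranges of Tmem119 (5.0 to 9.34) and Runx2 (8.39 to 9.58) overlapped, as did those of Tmem119 and Alpl (4.60 to 6.54).

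**Figure D1:**
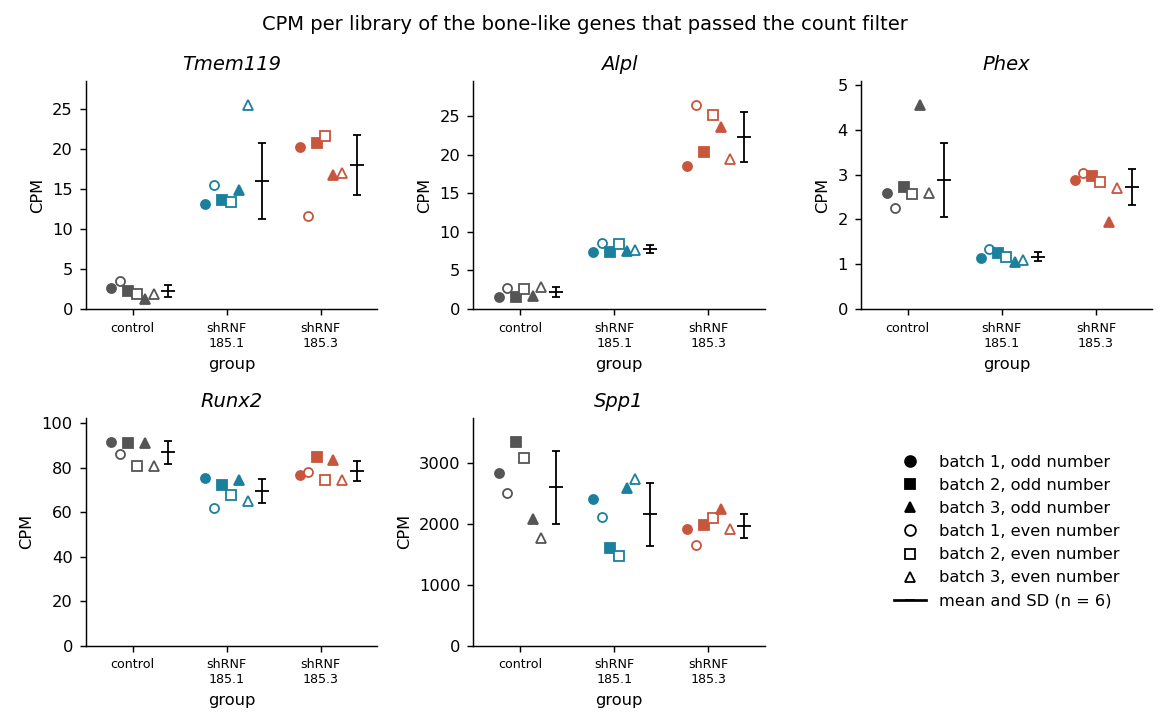
CPM of Tmem119, Alpl, Phex, Runx2 and Spp1 in each library (points, vertical axis from 0) for control, shRNF185.1 and shRNF185.3, with the mean and SD of 6 libraries; the shape gives the batch, and filled or open symbols give odd or even replicate numbers. Alpl forms 3 separate levels, with means of 2.18, 7.81 and 22.2 CPM, and Phex is low with shRNF185.1 alone, at 1.17 CPM.

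Tmem119 (ENSMUSG00000054675) occupies chromosome 5, minus strand, bases 113793729 to 113800516 of GRCm38, with 2315 exonic bases, none of which is shared with the exons of another gene. The lowest, median and highest control libraries had 1.21, 2.07 and 3.51 CPM. Under shRNF185.1 these were 13.1, 14.2 and 25.4 CPM, and under shRNF185.3 11.6, 18.6 and 21.6 CPM. Neither hairpin group overlapped control, and the hairpin groups overlapped each other. Over all tested genes 12.8% and 13.3% did not overlap control under shRNF185.1 and shRNF185.3, and nothing is read from this for Tmem119. Fitted log2 differences from control were 2.85 (SE 0.22) for shRNF185.1 and 3.02 (SE 0.22) for shRNF185.3. These hairpin comparisons, here and for all genes that follow, share their 6 control libraries. In bulk RNA, a change in the number of cells that express a gene and a change in RNA per cell cannot be told apart.

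Batches 1, 2 and 3 gave Tmem119 log2 differences of 2.22, 2.67 and 3.62 for shRNF185.1, and of 2.33, 3.32 and 3.41 for shRNF185.3. Batch 1 gave the smallest value with each hairpin. The difference between the hairpins, 0.18 (SE 0.20), was 0.11, 0.65 and -0.20 in the same batches, so its sign was not the same in every batch. Because Tmem119 is a microglia marker, 10 markers of microglia and macrophages were examined. None passed the filter. P2ry12, Fcrls and Sall1, which define microglia, had 0 counts in all 18 libraries, and 5 was the highest count of any of the 10 in any library. The summed level of the list ranged from 0.0467 to 0.251 CPM in control. Under shRNF185.1 it was 0.0775 to 0.319 CPM, and under shRNF185.3 0.0715 to 0.499 CPM.

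The genes most like Tmem119 across all 18 libraries were found by the root mean square difference of log2 CPM after the control mean of each gene was subtracted. Among genes with a mean count of at least 50 over all 18 libraries these were Psmb8 (0.48), Gstt1 (0.54), Igsf10 (0.61), Enpep (0.65) and Slfn2 (0.69). A gene low in control could pass that minimum through the hairpin groups, and Enpep and Slfn2 averaged only 0.712 and 0.532 CPM in control. The measure includes the rise on which Tmem119 was selected, so genes with a like rise come first and nothing is read from the list. Psmb8, a subunit of the immunoproteasome, averaged 2.09, 13.3 and 15.3 CPM in control, shRNF185.1 and shRNF185.3. Gstt1, a glutathione transferase, averaged 4.49, 27.1 and 23.6 CPM. Without batch 2, 3 of the 5 remained, and H2-Q4 and Isg15 entered. Without batch 3, 4 remained, and Alpl entered as the fifth (0.65).

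Alpl changed most among the 4 genes given a test, and it did so by a different amount with each hairpin. Alpl (ENSMUSG00000028766) occupies chromosome 4, minus strand, bases 137741733 to 137796384, with 4033 exonic bases and no shared 75-base window. The lowest, median and highest control libraries had 1.59, 2.15 and 2.86 CPM. Under shRNF185.1 these were 7.38, 7.55 and 8.55 CPM, and under shRNF185.3 18.6, 21.9 and 26.4 CPM. No library of one group lay within the range of another, and between the hairpins 8.25% of all genes had groups that did not overlap. Against control these shares were 12.8% with shRNF185.1 and 13.3% with shRNF185.3. Alpl rose 3.58 times with shRNF185.1, a log2 fold change of 1.82 (SE 0.15, edgeR adjusted p 3.56e-08), and 10.2 times with shRNF185.3, a log2 fold change of 3.34 (SE 0.15, adjusted p 1.53e-11). With shRNF185.3 only 5 of the 14309 genes had a higher log2 fold change. The hairpins differed directly by 1.51 (SE 0.13, adjusted p 2.19e-07).

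The batches gave nearly the same values for Alpl. The log2 difference was 1.90, 1.90 and 1.76 with shRNF185.1, 3.37, 3.41 and 3.25 with shRNF185.3, and 1.47, 1.51 and 1.5 between the hairpins. Genes called higher with both hairpins, and also called higher with shRNF185.3 than with shRNF185.1, made up 0.671% of the tested genes. This pattern was set after the Alpl values were seen, so nothing is read from its share. Rnf185 RNA was left at 16.2% and 16.1% of its control mean, and Alpl differed 2.85 times between the hairpins. The cause of that difference was not tested. By the same measure as for Tmem119, and chosen after the Alpl values were seen, the genes most like Alpl were Serpinf1 (0.60), Cnn1 (0.63), Enpep (0.69), Psmb8 (0.73) and Tmem119 itself (0.74). Without batch 2, 3 of these 5 remained, Psmb8 and Tmem119 left the list, and Cacng7 and Lmcd1 entered. Between the hairpins Serpinf1 and Cnn1 differed by 1.07 and 0.82 (log2), beside 1.51 for Alpl. Enpep, Psmb8 and Tmem119 differed there by only 0.19, 0.21 and 0.18. Serpinf1 encodes pigment epithelium-derived factor, a secreted serpin whose loss in people causes a form of brittle bone disease. It averaged 1.88, 5.21 and 10.9 CPM in control, shRNF185.1 and shRNF185.3.

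RefSeq lists 2 start sites for Alpl on GRCm38.p6, and the gene counts do not say which was used. The 250 bases before each are shown because Alpl is the gene with the clearest response, beside those of Spp1 and Bglap, a gene with abundant and a gene with almost no transcript. Capitals mark matches on either strand to 3 motifs. The core bound by Runx factors was searched as TGTGGT on both strands. The letters of the homeodomain core were TAATTG, read in the same way. The general promoter element near many start sites, called the TATA box, was searched for by the letters TATAAA. No matches overlapped.
Alpl, outer start, chr4:137796385-137796634, minus strand: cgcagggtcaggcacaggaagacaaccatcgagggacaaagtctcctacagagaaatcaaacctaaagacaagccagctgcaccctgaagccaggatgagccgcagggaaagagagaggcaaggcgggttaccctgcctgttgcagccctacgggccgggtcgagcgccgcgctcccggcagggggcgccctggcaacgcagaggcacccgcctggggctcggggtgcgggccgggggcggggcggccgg
Alpl, inner start, chr4:137766476-137766725, minus strand: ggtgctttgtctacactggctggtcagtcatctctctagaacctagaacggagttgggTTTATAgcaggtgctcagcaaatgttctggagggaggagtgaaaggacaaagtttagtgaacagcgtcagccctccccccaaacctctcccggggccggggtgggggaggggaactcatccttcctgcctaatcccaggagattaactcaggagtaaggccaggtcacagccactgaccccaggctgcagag
Spp1, first start, chr5:104434861-104435110, plus strand: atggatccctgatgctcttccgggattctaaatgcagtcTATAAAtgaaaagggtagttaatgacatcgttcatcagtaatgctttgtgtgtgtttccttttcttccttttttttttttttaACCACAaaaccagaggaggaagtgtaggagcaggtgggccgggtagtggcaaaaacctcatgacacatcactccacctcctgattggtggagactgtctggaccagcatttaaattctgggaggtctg
Bglap, chr3:88384467-88384716, minus strand: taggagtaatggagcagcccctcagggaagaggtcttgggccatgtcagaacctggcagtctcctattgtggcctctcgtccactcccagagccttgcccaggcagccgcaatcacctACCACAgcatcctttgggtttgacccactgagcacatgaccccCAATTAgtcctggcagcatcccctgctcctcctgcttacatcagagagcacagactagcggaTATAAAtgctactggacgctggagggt
Over all 32851 promoter windows of this length, the Runx core occurred in 14.0%, the homeodomain core in 7.2% and the TATA box in 12.4%. Neither Alpl window held a Runx core, and the inner one held a TATA box match starting 192 bases before the start site. The first Spp1 window held 1 Runx core, starting 128 bases before the start site, and a TATA box match starting 211 bases before it. A second Spp1 window, not shown, held no match. The Bglap window held 1 match of each kind, with its Runx core starting 132 bases and its TATA box match 27 bases before the start site. The Runx2 window, not shown, held a Runx core only, and the Phex window a homeodomain core only. The Ibsp window, also not shown, held a homeodomain core and a TATA box match starting 28 bases before the start site. A match is a run of letters and not a shown site. The RefSeq table used here had windows for 6 of the 9 genes.

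Phex fell with shRNF185.1, and no change was called with shRNF185.3. Phex (ENSMUSG00000057457) occupies chromosome X, minus strand, bases 157162075 to 157415312. The lowest, median and highest control libraries had 2.26, 2.6 and 4.55 CPM. Under shRNF185.1 these were 1.04, 1.15 and 1.34 CPM, and under shRNF185.3 1.95, 2.86 and 3.04 CPM. All 6 shRNF185.1 libraries lay below every library of the other groups, while shRNF185.3 and control overlapped. Among all tested genes, 12.8% did not overlap between shRNF185.1 and control, and 8.25% did not overlap between the hairpins. Phex under shRNF185.1 was left at 40.7% of the control mean, a log2 fold change of -1.29 (SE 0.16, adjusted p 7.79e-06). Under shRNF185.3 the log2 difference was -0.07 (SE 0.15, adjusted p 0.765). An interval of 2 SE around the latter runs from -0.37 to 0.23. The hairpins differed directly by 1.22 (SE 0.16, adjusted p 3.77e-05).

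Within batches 1, 2 and 3 shRNF185.1 gave Phex log2 differences of -0.93, -1.10 and -1.62, and shRNF185.3 gave 0.29, 0.13 and -0.57, so the sign was kept in all 3 batches under shRNF185.1 and not under shRNF185.3. Control replicate 5, at 4.55 CPM, and shRNF185.3 replicate 5, at 1.95 CPM, both of batch 3, stood apart from their groups. Without the first the log2 fold change with shRNF185.3 was 0.10 (adjusted p 0.548), and without the second 0.01 (adjusted p 0.981). A called fall with shRNF185.1, no call with shRNF185.3 and a called difference between the hairpins were found together in 2.73% of genes. That pattern was set after the Phex values were seen, so nothing is read from its share. By a likeness measured as for Tmem119, chosen after the Phex values were seen, the nearest genes were Vbp1 (0.15), Jade3 (0.23), Acbd5 (0.23), Yes1 (0.23) and Gnpnat1 (0.24). Without batch 3, 3 of these remained, and Ist1 and Tnks2 entered. Vbp1, a subunit of the prefoldin chaperone, averaged 60.5, 28.8 and 54.6 CPM in control, shRNF185.1 and shRNF185.3.

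Runx2 fell slightly with shRNF185.1. Runx2 (ENSMUSG00000039153) occupies chromosome 17, minus strand, bases 44495987 to 44814797, with 8837 exonic bases. The antisense gene Runx2os1 overlaps 519 of these, and whether the authors' counting used strand is not given in the sources used here, so reads from that stretch cannot be told apart. The lowest, median and highest control libraries had 80.6, 88.4 and 91.4 CPM. Under shRNF185.1 these were 61.9, 69.9 and 75.1 CPM, and under shRNF185.3 74.2, 77.3 and 84.7 CPM. All shRNF185.1 libraries lay below the lowest control, and 4 of 6 shRNF185.3 libraries did so. Among all tested genes, 12.8% did not overlap between shRNF185.1 and control. Runx2 changed by -0.32 on the log2 scale (SE 0.06, adjusted p 0.00022) under shRNF185.1. Under shRNF185.3 its value was -0.14 (SE 0.06, adjusted p 0.0673).

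The Runx2 value with shRNF185.3 was close to the threshold. Summing both libraries of a group within a batch gave no call (-0.12, adjusted p 0.0508). It passed without control replicate 4 (adjusted p 0.0428), without control replicate 6 (0.0495) and without shRNF185.3 replicate 3 (0.043). The difference between the hairpins, 0.18 (SE 0.06, adjusted p 0.0319), was 0.18, 0.19 and 0.18 within batches 1, 2 and 3. Its call was lost without shRNF185.1 replicate 2, 4 or 6 (adjusted p 0.0803, 0.065 and 0.0709) and without shRNF185.3 replicate 2, 3 or 5 (0.0518, 0.0758 and 0.0695).

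Spp1 was the most abundant of the 9 genes, and no change was called. Spp1 (ENSMUSG00000029304) occupies chromosome 5, plus strand, bases 104435118 to 104441050. Of its 75-base windows, 8.55% also occur in Gm42793, which overlaps 309 of its 1648 exonic bases on the same strand. The lowest, median and highest control libraries had 1770, 2670 and 3340 CPM. Under shRNF185.1 these were 1470, 2260 and 2730 CPM, and under shRNF185.3 1650, 1950 and 2240 CPM. The 3 groups overlapped. On the log2 scale shRNF185.1 gave -0.28 (SE 0.16, adjusted p 0.211), with an interval of 2 SE from -0.59 to 0.04. For shRNF185.3 the value was -0.40 (SE 0.16, adjusted p 0.0681), with an interval from -0.72 to -0.08.

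The Spp1 values differed between batches in sign. In batches 1, 2 and 3 shRNF185.1 gave log2 differences of -0.24, -1.06 and 0.47 from control, and shRNF185.3 gave -0.58, -0.66 and 0.11. In batch 3 both control libraries were lower than the other 4, at 2080 and 1770 CPM in replicates 5 and 6. The value with shRNF185.3 passed the threshold without control replicate 5 (-0.46, adjusted p 0.0491), without control replicate 6 (-0.49, adjusted p 0.0222), and without shRNF185.1 replicate 4 (-0.40, adjusted p 0.048). With batch 3 left out it was -0.62 (adjusted p 0.0108), and that with shRNF185.1 was -0.63 (adjusted p 0.00865).

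**Figure D2:**
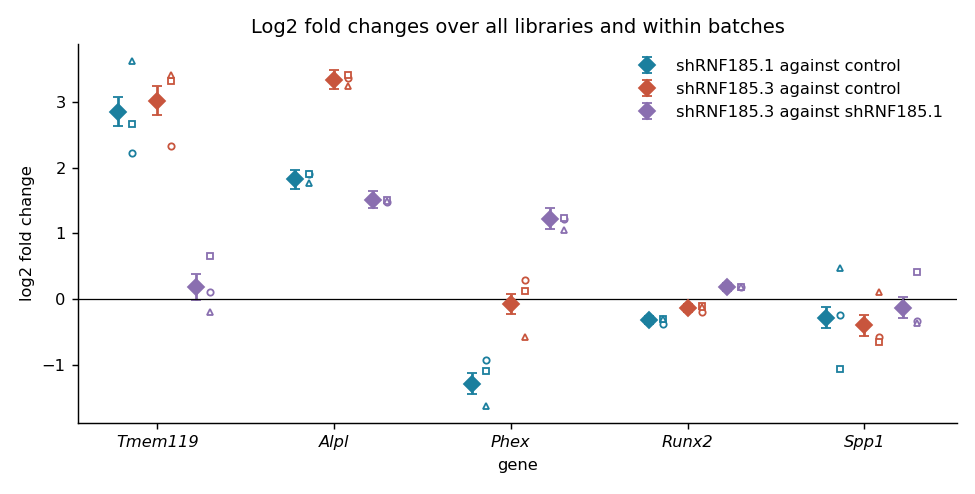
Log2 fold change (vertical axis) of Tmem119, Alpl, Phex, Runx2 and Spp1 for each hairpin against control and for shRNF185.3 against shRNF185.1; diamonds with bars give the fitted value and its SE, and small open symbols give batches 1 (circle), 2 (square) and 3 (triangle). The batches of Alpl lie close together, at 3.25 to 3.41 with shRNF185.3, while those of Spp1 with shRNF185.1 run from -1.06 to 0.47.

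Counted over the 4 genes with a test, Alpl, Phex, Runx2 and Spp1, shRNF185.1 gave 1 call higher and 2 lower, where 28.9% of all genes were called, 14.6% higher and 14.3% lower. With shRNF185.3 there was 1 call higher and 0 lower, where 27.3% of all genes were called, 14.2% higher and 13.1% lower. Between the hairpins 3 of the 4 were called, all higher with shRNF185.3, where 14.7% of all genes were called, 7.72% higher and 6.94% lower. The 4 genes did not move as a group against control. Their directions differed from each other with shRNF185.1, where Alpl rose and Phex and Runx2 fell.

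The transcription factors Sp7 and Dlx5 and the matrix genes Ibsp and Bglap were nearly absent. Sp7 (ENSMUSG00000060284, chromosome 15) summed to 14 counts over the control libraries, 4 with shRNF185.1 and 16 with shRNF185.3, and 6 was its highest count in a library. Dlx5 (ENSMUSG00000029755, chromosome 6) summed to 15, 17 and 37 counts. Its 6 libraries with shRNF185.3 held between 1 and 12 counts, and 4 of them lay above the highest control in CPM. Fitted with no filter, the Dlx5 log2 difference was 1.45 with shRNF185.3 (adjusted p 0.159, over 28169 genes) and was not called.

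Ibsp (ENSMUSG00000029306, chromosome 5), which lies in the same gene cluster as Spp1, had 1 count in 1 control library and 0 in the other 17. Bglap (ENSMUSG00000074483, chromosome 3) summed to 11, 8 and 5 counts. Its value is uncertain, since 50% of its 75-base windows also occur in its near copies Bglap2 and Bglap3. Bglap2 had 0 counts in every library, and Bglap3 averaged 0.133, 0.0611 and 0.104 CPM in control, shRNF185.1 and shRNF185.3. No fold of means is given for these 4 genes, since in control 5 or 6 of the 6 libraries of each lay at or under the floor of 3 counts.

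**Figure D3:**
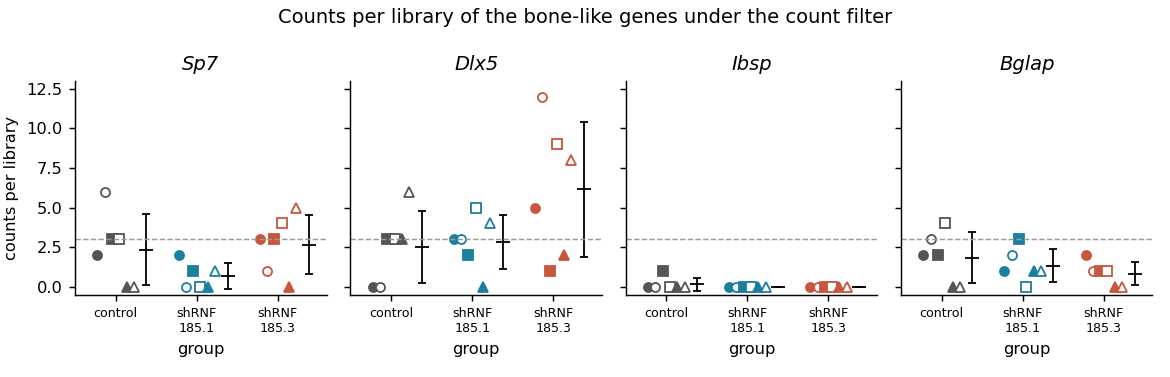
Counts per library (vertical axis) of Sp7, Dlx5, Ibsp and Bglap in the 3 groups, with the mean and SD of 6 libraries; the dashed line marks 3 counts, and symbols are as in the plot of CPM by library. The highest count of any library is 12, for Dlx5 with shRNF185.3, and Ibsp has a single count.

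Other transcription factors of the osteoblast lineage moved in both directions. Of 14 in the list, 12 were tested. Under shRNF185.1 there were 2 calls higher and 3 lower, and under shRNF185.3 3 higher and 4 lower, with median log2 fold changes of 0.02 and -0.02 beside -0.02 for all genes with each hairpin. The share of all genes called was 28.9% and 27.3%. Cbfb, the partner subunit that does not bind DNA itself and strengthens the DNA binding of Runx factors, fell with both hairpins, by -0.37 (adjusted p 0.00032) and -0.22 (adjusted p 0.018). The paralog Runx3 fell by -0.44 (adjusted p 0.00015) and -0.22 (adjusted p 0.028). The paralog Runx1 rose by 0.69 (adjusted p 1.2e-05) and 0.36 (adjusted p 0.0054). Creb3l1, a membrane-bound factor that drives type I collagen expression in osteoblasts, rose with shRNF185.3 (0.79, adjusted p 0.0079), as did Twist1, a helix-loop-helix factor that restrains Runx2 (0.75, adjusted p 0.015). Their values with shRNF185.1 were 0.51 (adjusted p 0.073) and -0.11 (adjusted p 0.75).

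Of 26 matrix and mineralisation genes other than the 9, 25 matched an identifier, with Ankh not matched, and 16 were tested. Under shRNF185.1 there were 6 calls higher and 4 lower, and under shRNF185.3 8 higher and 2 lower, with medians of -0.01 and 0.32. Over all genes 14.6% were called higher and 14.3% lower under shRNF185.1, and 14.2% and 13.1% under shRNF185.3. Called higher with both hairpins were 6 genes, and lower with both 2, beside 8.99% and 7.13% of all genes. Ogn, a small leucine-rich proteoglycan, rose from 0.669 CPM in control to 2.28 and 3.40 CPM, by 1.78 and 2.37 (adjusted p 0.0043 and 0.00039). Col1a1, a chain of the main collagen of bone, rose by 1.29 and 2.19 (adjusted p 0.0022 and 1.9e-05). Its partner chain Col1a2, named after its values were seen, was called lower with shRNF185.1 (-0.56, adjusted p 0.0031) and higher with shRNF185.3 (0.55, adjusted p 0.0038).

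Other genes of the same list moved in both directions. Enpp1, which makes the pyrophosphate that alkaline phosphatase breaks down, fell from 21.5 CPM in control to 11.3 and 11.2 CPM, a log2 fold change of -0.93 with each hairpin (adjusted p 0.00013 for both). Smpd3, a sphingomyelinase needed for bone mineral, rose by 1.28 and 0.86 (adjusted p 9.3e-05 and 0.0035). Phospho1, a phosphatase of matrix vesicles named after its values were seen, fell by -0.67 and -0.62 (adjusted p 0.023 and 0.036). Slc20a2, a phosphate transporter, was called lower with shRNF185.1 (-0.18, adjusted p 0.043), and its value with shRNF185.3 was -0.17 (adjusted p 0.057). The related transporter Slc20a1, named after its values were seen, was not called (-0.30 and -0.14, adjusted p 0.0957 and 0.455). Bgn, the proteoglycan biglycan, was called higher with shRNF185.3 (0.49, adjusted p 0.00058), with a value of 0.04 (adjusted p 0.77) with shRNF185.1. The list holds members of other families as well, and no theme is claimed for it.

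**Figure D4:**
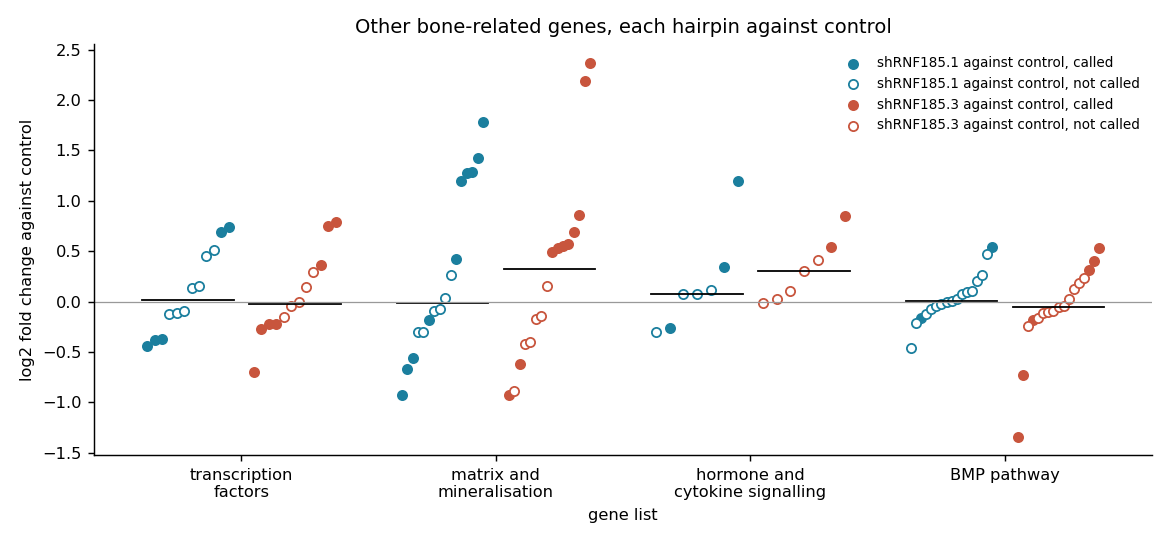
Log2 fold change against control (vertical axis) of every tested gene in 4 lists of bone-related genes, for shRNF185.1 and shRNF185.3; filled points have an edgeR adjusted p under 0.05, and black lines are list medians. The matrix and mineralisation genes with shRNF185.3 have a median of 0.32, and the BMP pathway genes have medians of 0.01 and -0.05.

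Among hormone and cytokine genes of osteoblasts, 7 of 12 were tested. Under shRNF185.1 there were 2 calls higher and 1 lower, and under shRNF185.3 2 higher and 0 lower, with medians of 0.07 and 0.30, where 28.9% and 27.3% of all genes were called. Vdr, the vitamin D receptor, rose from 15.2 CPM in control to 35.0 and 27.4 CPM, by 1.20 (adjusted p 1e-06) and 0.85 (adjusted p 5.3e-05). Tnfrsf11b (osteoprotegerin), a decoy that blocks the osteoclast signal RANKL, was called higher with shRNF185.3 (0.54, adjusted p 0.011), and its value with shRNF185.1 was -0.30 (adjusted p 0.16). Csf1, a growth factor of macrophages and osteoclasts, was called higher with shRNF185.1 (0.34, adjusted p 0.044), with 0.30 (adjusted p 0.077) for shRNF185.3.

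Bone morphogenetic proteins (BMPs) signal through Smad1, Smad5 and Smad9 to Runx2 and Alpl in osteoblasts. Of 20 genes 17 were tested, and shRNF185.1 gave 1 call higher and 1 lower, shRNF185.3 3 higher and 3 lower, at medians of 0.01 and -0.05. Over all genes 28.9% and 27.3% were called. Smad6, an inhibitory Smad, was the gene called with both hairpins, at 0.54 (adjusted p 1.6e-05) and 0.40 (adjusted p 0.00039). With shRNF185.3 the ligand Bmp4 fell by -0.73 (adjusted p 1.7e-06) and the BMP antagonist Chrd by -1.34 (adjusted p 0.0052). Their values with shRNF185.1 were 0.09 (adjusted p 0.40) and -0.46 (adjusted p 0.29).

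Markers of other cell types were set beside these values. Over all genes 28.9% were called with shRNF185.1 and 27.3% with shRNF185.3, and 8.99% were called higher and 7.13% lower with both. Of 9 osteoclast markers 4 were tested, and they moved in different directions. Nfatc1, the transcription factor that drives osteoclast formation, fell with both hairpins (-0.34 and -0.24, adjusted p 3.8e-05 and 0.0011). Of those named after their values were seen, Mmp9, a matrix metalloproteinase, rose with shRNF185.3 (1.32, adjusted p 1.6e-06), from a mean of 11.1 to 27.8 CPM, and its value with shRNF185.1 was -0.19 (adjusted p 0.346). Itgb3, an integrin subunit, was called lower with shRNF185.1 (-0.51, adjusted p 0.0439), with 0.14 (adjusted p 0.604) for shRNF185.3. The summed level of the osteoclast list was 71.9 to 100 CPM in control. Under shRNF185.1 it was 52.7 to 79.0 CPM, and under shRNF185.3 89.4 to 113 CPM. Of 9 chondrocyte markers 3 were tested, and 1 of these, the cartilage collagen Col2a1, was called in opposite directions, as seen after its values were known. Col2a1 fell with shRNF185.1 (-1.07, adjusted p 0.00844) and rose with shRNF185.3 (1.59, adjusted p 5e-05), from 0.487 CPM in control to 0.236 and 1.5 CPM, and the hairpins differed by 2.66 (adjusted p 1.16e-06). The summed ranges of the list were 59.1 to 89.2, 54.6 to 76.2 and 59.4 to 85.1 CPM. Of 7 adipocyte markers 3 were tested, and Lpl (lipoprotein lipase), named after its values were seen, was called lower with shRNF185.1 (-0.35, adjusted p 0.0466) and not with shRNF185.3 (0.19, adjusted p 0.273), with list sums of 24.8 to 36.5, 24.5 to 35.6 and 29.4 to 35.1 CPM.

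Epithelial markers were lower where Alpl and Tmem119 were higher. Of 10 luminal markers 6 were tested, and Cdh1 (E-cadherin), Krt18 and Krt8 fell with both hairpins, Cdh1 by -1.91 and -2.13 (adjusted p 1.4e-05 and 4.9e-06). Over all genes 7.13% were called lower and 8.99% higher with both hairpins. The list summed to 1610 to 1940 CPM in control. Its sums were 1090 to 1360 CPM under shRNF185.1 and 1140 to 1220 CPM under shRNF185.3. Of 6 basal markers 4 were tested, with Itgb4 lower (-1.44 and -1.45, adjusted p 0.0022 and 0.0024) and Trp63 higher (0.64 and 0.76, adjusted p 0.019 and 0.007) with both hairpins. The basal list summed to 26.2 to 40.3, 19.9 to 30 and 21.9 to 29.1 CPM. The part of these epithelial genes in the bone-like values was not tested.

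Odd and even replicate numbers differed within groups for some of these genes. In control, Alpl was at 1.59 to 1.67 CPM in the odd-numbered libraries and 2.64 to 2.86 CPM in the even-numbered ones, which did not overlap. With shRNF185.1 the ranges were 7.38 to 7.45 and 7.65 to 8.55 CPM, again apart, and with shRNF185.3 they overlapped, at 18.6 to 23.6 and 19.5 to 26.4 CPM. Runx2 was at 90.9 to 91.4 CPM in odd and 80.6 to 86.0 CPM in even control libraries, and at 72.1 to 75.1 and 61.9 to 67.7 CPM with shRNF185.1. Each group has 3 libraries of each kind. On the log2 scale shRNF185.1 raised Alpl by 2.14 among odd and 1.56 among even libraries, and shRNF185.3 by 3.62 and 3.07. The Runx2 difference with shRNF185.1 was -0.30 and -0.35. What the labels' odd and even numbers stand for is not given in the sources used here.

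Genes with a start within 100 kb of a start of the 5 filtered genes were counted, to see whether neighbours changed with them. For Tmem119, 3 of 9 such genes were tested, and Ficd, an enzyme that modifies the endoplasmic reticulum chaperone BiP, was called higher with both hairpins, at 0.27 and 0.37 (adjusted p 0.021 and 0.0026). For Alpl the 1 tested neighbour, Ece1, the endothelin-converting enzyme, was higher at 0.57 and 0.60 (adjusted p 1.7e-05 and 1e-05). It did not differ between the hairpins beyond the test (0.03, adjusted p 0.89), where Alpl did. For Phex the 1 tested neighbour, Sms (spermine synthase), was lower at -0.39 and -0.21 (adjusted p 0.0005 and 0.036). Of the 2 neighbours tested for Runx2 and the 4 for Spp1, 0 were called in the same direction with both hairpins, where 8.99% of all genes were called higher and 7.13% lower with both.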

How the data were processed

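Polyadenylated RNA was sequenced from 18 MPC3 libraries with a directional kit, per the labels' protocols. The submitters' processing notes name cutadapt 2.3, STAR 2.7.0d, RSEM 1.3.1 and mm10 with no role or order. The authors deposited estimated counts adjusted by ComBat-Seq per the labels, of which 0.466% are not whole; they were rounded. Whether the adjustment was told the groups, and so how far it narrowed the spread, is not given in the sources used here. The deposited CPM, a normalised signal, equal the counts over an effective library size within a relative difference of 5e-10; that size also gave CPM for genes outside the CPM table. The test had been planned for whole counts and was kept. Gene models are GENCODE M21 (GRCm38, the build mm10 names), and promoter sequences are RefSeq's on GRCm38.p6.

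Genes were kept by filterByExpr (minimum count 10), scaled by TMM, and fitted in edgeR 4.0.16 (R 4.3.3) with a mean per group over all 18 libraries and the quasi-likelihood F test; p-values were adjusted by Benjamini-Hochberg over 14309 genes and called under 0.05. SE is the log2 fold change over the root of F. Alternatives used DESeq2 1.42.0, limma 3.58.1, other scalings, filters and terms, and left out batches or libraries. The fit was tested on simulated data. Same-group libraries were checked in 45 pairs, whose chi-square per gene was at least 7.64, so none looked like a duplicate.

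The genes and lists were chosen with earlier results of these data known. Named are the 9 genes, Rnf185, up to 4 genes per list called in the same direction with both hairpins (largest smaller change first), 2 more per bone list called with 1 hairpin, the 5 genes most like Tmem119, and neighbours called with both; a gene named otherwise is said to be. Some of the luminal markers are not reported here by name.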

Additional observations from a re-analysis of the deposited data

Results flagged for a closer look

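In 18 groups of 6 libraries (the 5 filtered genes and Rnf185 in 3 groups) Dixon's criterion marked 3 libraries as far from the rest of their group, where chance gives about 0.9. For Tmem119 this was replicate 6 of shRNF185.1 (4.67 log2 CPM, nearest other library 3.96). For Phex these were replicate 5 of control (2.21 log2 CPM, nearest 1.49) and replicate 5 of shRNF185.3 (1.02 log2 CPM, nearest 1.47). The last 2 libraries share a replicate number and batch 3, and lie on opposite sides of their groups.

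The hairpins differed from each other by a direct test in 3 genes. Alpl (1.51), Phex (1.22) and Runx2 (0.18, all log2) were each higher under shRNF185.3 than under shRNF185.1. The first 2 passed in all 13 alternatives and all 18 fits without 1 library, with adjusted p of at most 0.000195 for Alpl and 0.00799 for Phex, and the third did not, as given under the processing.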

How the results depend on the processing

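Alpl with each hairpin and between them, Phex with shRNF185.1 and between the hairpins, and Runx2 with shRNF185.1 kept their direction and call in all 13 alternatives and all 18 fits that left out 1 library. Limma, run on log2(CPM + 1), moved Tmem119 most, to 2.40 with shRNF185.1 and 2.57 with shRNF185.3. Without batch 1 the counts of genes called were 2207, 2120 and 753 for shRNF185.1, shRNF185.3 and the hairpins against each other, in place of 4141, 3906 and 2098; without batch 3 shRNF185.3 gave 2501, and without batch 2 the hairpins differed in 1208. Fewer libraries enter these fits.

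Spp1 with shRNF185.1 reversed to 0.10 without batch 2 and passed at -0.63 without batch 3. With shRNF185.3 it passed at -0.62 without batch 3 and at -0.40 with DESeq2 (adjusted p 0.0432), and left-out libraries gave -0.49 to -0.32. Between the hairpins it was 0.01 without batch 3. Phex with shRNF185.3 was 0.21 without batch 3, and -0.13 to 0.10 over the left-out libraries. Runx2 with shRNF185.3 passed at -0.14 (adjusted p 0.005) with the odd or even number as a term, an alternative chosen after seeing the data, and -0.16 to -0.12 over the left-out libraries. Runx2 between the hairpins did not pass with library size alone (0.18, adjusted p 0.0678), no filter (0.17, 0.0676), the batch covariate (0.18, 0.0592), or without batch 1 (0.19, 0.179), 2 (0.17, 0.152) or 3 (0.18, 0.102); left-out libraries gave 0.15 to 0.21. The number of the 4 tested genes called lower with shRNF185.3 was 0, and 1 with the replicate block, the odd or even term, DESeq2 or without batch 3, and 0 to 2 over the left-out libraries; the cause was not tested.

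With the replicate number as a block, Runx2 with shRNF185.3 passed at -0.14 (adjusted p 0.0229), no other call of the 4 genes changed, and the counts of genes called were 3811, 3578 and 1976. Deviations of same-numbered libraries of different groups correlated at a mean of -0.0144 (18 pairs, -0.628 to 0.705). The mean was -0.434 for the other number of the batch (18 pairs) and 0.111 for other batches (72 pairs). Of 18 libraries, 2 correlated best with their own number. The batch adjustment of the counts can itself lower correlations within a batch, so this comparison cannot decide whether equal numbers were pairs. The numbers were not taken as pairs. The list of genes most like Tmem119 shared 3 of 5 without batch 2 and 4 or 5 in the other alternatives. Sp7, Dlx5, Ibsp and Bglap had at most 12 counts in a library, and with no filter none of their differences was called, with an adjusted p of at least 0.159.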
